A study of Mus musculus with 4 samples.

Results

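Plet1, Ceacam10, Cd177, Ceacam1, Ceacam20 and 1810065E05Rik are 6 genes of the intestinal surface, found by their symbols among the 56748 genes of the deposited count table, each in 1 row. Plet1, Cd177, Ceacam10, Ceacam1, Ceacam20 and 1810065E05Rik were chosen by their measured values in the same comparison described here, so their differences between genotypes are a description and carry no test. Poly-A-selected RNA was measured in the mouse small intestine (SI) at 1 day post 12 Gy total-body irradiation (TBI, from a Cs-137 source) in 2 WT (p53+/+) and 2 p53-/- mice. The p53-/- mice lack p53 in every tissue from the germline on, and all 4 mice were irradiated. The methods describe the mice as matched for age and gender, and the labels give no sex. The columns of the table carry the numbers 7 and 8 for WT and 9 and 10 for p53-/-, which serve here as names of the libraries. RNA was extracted from SI tissue, so more cells of a type and more RNA per cell cannot be told apart. The paper's methods do not name the segment of the SI.

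The members belong to families that act at the cell surface. CEACAM proteins are adhesion molecules of the immunoglobulin superfamily, and many of them line the apical membrane of the gut, where microbes meet them first. CEACAM1 spans the membrane and carries an inhibitory signalling tail, CEACAM20 sits at the brush border and is a substrate of the phosphatase PTPRH, and mouse CEACAM10 lacks a membrane anchor and is secreted. Proteins of the Ly6/uPAR family share a small disulfide-rich fold and are mostly held in the membrane by a glycosylphosphatidylinositol (GPI) anchor, as CD177 is, a glycoprotein best known from neutrophils. 1810065E05Rik, known by the name of its cDNA clone, was grouped with this family. PLET1 is another GPI-anchored glycoprotein, known from trophoblast and from skin and gut epithelia.

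The sequences around the start sites were read first. Of the genes that differed most, Ceacam10 and Cd177 lie side by side on chromosome 7, Plet1 on chromosome 9 and 1810065E05Rik on chromosome 11. The windows are those of RefSeq on GRCm38.p6, run 5' to 3' on the strand of the gene from upstream to just past the annotated start, and hold 300 bases each. All 6 members were found in the RefSeq table, where Ceacam10 has 2 windows, of which the first was used. The windows of Ceacam10 (chr7:24776917-24777216, plus strand) and Ceacam1 (chr7:25477576-25477875, minus strand) are shown because they are near copies of each other. Capitals mark the 20 bases at which the windows differ within their aligned stretch.
Ceacam10: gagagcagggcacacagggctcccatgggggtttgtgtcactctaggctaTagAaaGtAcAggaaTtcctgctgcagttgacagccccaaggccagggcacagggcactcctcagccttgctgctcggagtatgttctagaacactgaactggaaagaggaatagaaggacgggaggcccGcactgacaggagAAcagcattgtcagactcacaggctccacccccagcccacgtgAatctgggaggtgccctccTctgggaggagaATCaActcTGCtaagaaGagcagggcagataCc
Ceacam1: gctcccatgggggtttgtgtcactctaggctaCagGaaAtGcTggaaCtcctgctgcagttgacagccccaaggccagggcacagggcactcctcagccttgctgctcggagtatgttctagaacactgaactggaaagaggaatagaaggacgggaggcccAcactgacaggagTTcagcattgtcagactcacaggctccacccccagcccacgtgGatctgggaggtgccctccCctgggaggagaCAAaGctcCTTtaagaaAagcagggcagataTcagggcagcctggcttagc
Of 282 aligned bases 262 were identical (92.9%), with 0 gap columns. The next closest CEACAM window to that of Ceacam10 was that of Ceacam2, at 77.8% over 189 aligned columns, and the other 10 reached 47.3% to 56.0%, that of Ceacam20 49.2%. The E-box CACGTG stands at position -20 from the start in Ceacam10 and at -38 in Ceacam1, within the matched stretch. It occurs in 7.24% of the 27025 windows in the table.

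The windows of Plet1 (chr9:50494275-50494574, plus strand), Cd177 (chr7:24760262-24760561, minus strand) and 1810065E05Rik (chr11:58420861-58421160, plus strand) are shown for a TATA motif (TATAAA) ahead of the start, given in capitals.
Plet1: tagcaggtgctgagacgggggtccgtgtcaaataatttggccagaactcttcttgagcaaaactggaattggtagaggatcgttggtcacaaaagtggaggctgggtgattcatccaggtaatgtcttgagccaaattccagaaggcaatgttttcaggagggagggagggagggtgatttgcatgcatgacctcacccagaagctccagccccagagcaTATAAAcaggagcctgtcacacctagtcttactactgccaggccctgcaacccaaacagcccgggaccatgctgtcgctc
Cd177: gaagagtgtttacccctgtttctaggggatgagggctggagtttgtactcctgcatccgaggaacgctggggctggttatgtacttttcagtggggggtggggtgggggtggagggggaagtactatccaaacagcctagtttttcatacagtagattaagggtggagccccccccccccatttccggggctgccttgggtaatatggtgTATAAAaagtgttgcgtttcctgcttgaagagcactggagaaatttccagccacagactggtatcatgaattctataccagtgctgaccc
1810065E05Rik: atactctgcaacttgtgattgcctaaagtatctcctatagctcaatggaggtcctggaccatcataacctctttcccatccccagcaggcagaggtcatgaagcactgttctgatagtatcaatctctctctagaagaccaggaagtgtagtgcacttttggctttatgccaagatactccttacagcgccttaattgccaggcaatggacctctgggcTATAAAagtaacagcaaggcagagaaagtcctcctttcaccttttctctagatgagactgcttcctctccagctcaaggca
The motif begins 30 bases before the start in Plet1, 40 in Cd177 and 31 in 1810065E05Rik. Between 40 and 20 bases before the start, on the strand of the gene, it is found in 2.22% of all windows, and anywhere on either strand in 14.2%. The motif of Cd177 begins at the edge of that range, and a narrower range would miss it. The windows of Ceacam10, Ceacam1 and Ceacam20 do not hold it. An AP-1 motif (TGANTCA, both strands) was found in the window of Plet1 and in 7.93% of all windows. The STAT motif TTCNNNGAA (8.47% of windows), the single p53 unit RRRCWWGYYY (8.37%) and the full p53 site (0.0592%) were in none of the 6 windows. R is A or G, W is A or T and Y is C or T. A site as rare as the full p53 site is expected in almost no set of 6 windows, so its absence decides nothing. The single unit, though commoner, would also be missing from many sets of 6 windows. The motifs were picked after the sequences were seen, and a match is a description of the letters only.

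The libraries held 17430246 and 15005479 counts for WT and 22173164 and 19811346 for p53-/-. CPM values are counts divided by the TMM-adjusted size of each library, and on this scale 1 count is worth 0.0438 to 0.0649 CPM. Differences are log2 fold changes of p53-/- over WT from edgeR, fitted to the 16094 genes with enough counts. Their standard errors (SE) are approximate, since edgeR does not report them. Each is the fitted coefficient divided by the square root of the quasi-likelihood F statistic. It may be too small for genes with few WT counts, such as Plet1 and Ceacam10. Trp53 itself was at 57.7 and 47.1 CPM in WT and 19.8 and 22.5 CPM in p53-/-, and its transcript was therefore reduced but not lost in the libraries labelled p53-/- (adjusted p = 0.0602, edgeR quasi-likelihood test with Benjamini-Hochberg adjustment). Of 18 p53 target genes 7 were lower past the threshold of 0.05 and 0 higher (median log2 fold change -1.67). Over all genes tested 0.193% were lower and 0.298% higher. Among the p53 targets Eda2r was at 19.1 CPM in WT and 0.0906 CPM in p53-/-, and Phlda3, an AKT inhibitor, at 89.6 and 1.74 CPM. Ccng1, cyclin G1, another of them, was at 463 and 46.3 CPM. The best-known target Cdkn1a was at 630 and 233 CPM and did not pass. Library 10 stood apart from the others. It held 588 counts of Xist, the transcript of the inactive X chromosome of female cells, against 2, 0 and 4 in libraries 7, 8 and 9. The p53-/- pair was therefore not alike in this marker of sex, and sex cannot be told apart from other differences between libraries 9 and 10. Neither WT library was high in Xist, so by this marker sex was not balanced between the genotypes either. The 18S rRNA gene Rn18s-rs5 took 4.59% of the counts of library 10, against 0.296% to 0.863%. Summed B cell markers reached 792 CPM in it, against 10.5 to 38.7 CPM. Of the enterocyte markers that define the tissue, the peptidase Anpep was abundant, at 8097, 11001, 9591 and 6957 CPM in libraries 7 to 10, although Fabp1 (55 to 88 counts) and Lct (10 to 16 counts) were low in every library.

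Plet1 went from near absence to one of the more abundant transcripts of the p53-/- SI. Plet1 (ENSMUSG00000032068) had 4 and 7 counts in the WT libraries and 5359 and 3530 counts in the p53-/- libraries. This is 0.248 and 0.454 CPM in WT against 235 and 176 CPM in p53-/-. Both WT libraries were close to the detection limit and both p53-/- libraries lay far above them. The means were 0.351 ± 0.146 and 205 ± 41.9 CPM (SD, n = 2), a 585-fold ratio and a log2 fold change of 9.17 (SE 0.362). Only 7 of the tested genes had a larger log2 fold change, and by mean CPM Plet1 moved from rank 16461 of all genes in WT to rank 790 in p53-/-.

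Ceacam10 and Cd177, which lie side by side on chromosome 7, were both low in WT and abundant in p53-/-. Ceacam10 (ENSMUSG00000054169), the secreted CEACAM, had 13 and 9 counts in WT and 1278 and 1346 in p53-/-, or 0.805 and 0.584 CPM against 56.0 and 67.0 CPM. Its means were 0.694 ± 0.156 and 61.5 ± 7.73 CPM (SD, n = 2), and its log2 fold change was 6.45 (SE 0.275). Cd177 (ENSMUSG00000052212) had 55 and 33 counts in WT and 3105 and 2402 in p53-/-, or 3.40 and 2.14 CPM against 136 and 119 CPM. Its means were 2.77 ± 0.893 and 128 ± 11.7 CPM (SD, n = 2), and its log2 fold change was 5.52 (SE 0.279). For both genes the genotypes did not overlap, and library 10 was the higher p53-/- library for Ceacam10 and library 9 for Cd177.

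1810065E05Rik (ENSMUSG00000013653) was already expressed in WT and higher in p53-/-. It had 266 and 215 counts in WT and 1975 and 1839 in p53-/-, or 16.5 and 13.9 CPM against 86.6 and 91.5 CPM. The means of 15.2 ± 1.78 and 89.0 ± 3.47 CPM (SD, n = 2) give a log2 fold change of 2.55 (SE 0.170), the smallest SE of the 6 members. The libraries of each genotype lay close together and the genotypes did not overlap.

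The epithelial CEACAMs with high levels in WT differed far less. Ceacam1 (ENSMUSG00000074272), the inhibitory receptor, had 31252 and 27142 counts in WT and 80882 and 49339 in p53-/-, or 1934 and 1761 CPM against 3545 and 2454 CPM. Both p53-/- libraries were above both WT libraries, but they also lay further from each other than library 10 lay from WT. The log2 fold change was 0.70 (SE 0.326), and 2586 tested genes had a larger one. Ceacam20 (ENSMUSG00000070777), the brush border member, had 7651 and 5804 counts in WT and 6904 and 5105 in p53-/-. Because the p53-/- libraries were deeper, this is 473 and 377 CPM against 303 and 254 CPM, with both p53-/- libraries below both WT libraries. Its log2 fold change was -0.61 (SE 0.224), and it was the member with the lower level in p53-/-.

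**Figure D1:**
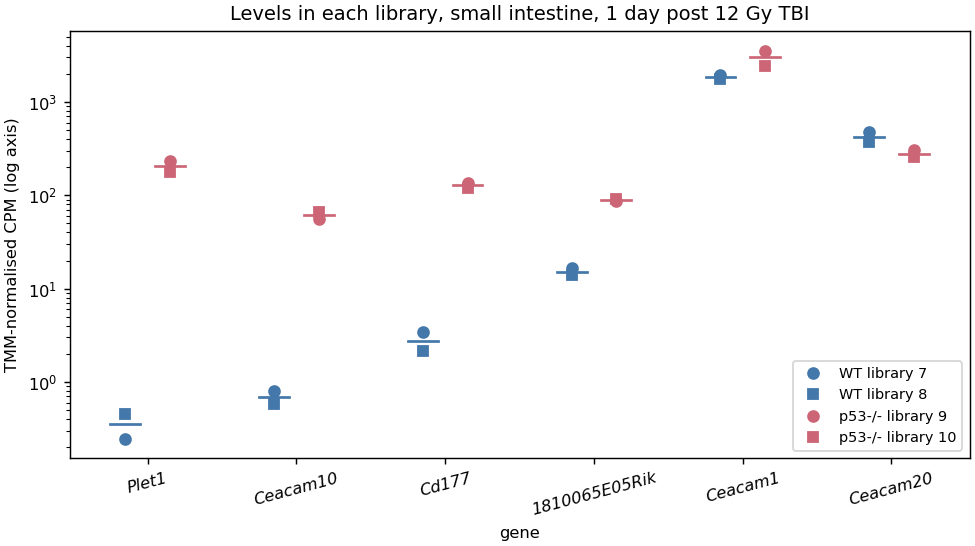
TMM-normalised CPM on a log axis for each of the 6 genes in each library, with circles and squares for the libraries of a genotype and a bar at the mean of 2. Plet1 goes from 0.248 and 0.454 CPM in WT to 235 and 176 CPM in p53-/-, while Ceacam20 is the gene whose p53-/- libraries lie below WT.

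Of the 6 members, 4 (Plet1, Ceacam10, Cd177 and 1810065E05Rik) were past the threshold of the test over all genes and higher, where 0.298% of tested genes were higher, and 0 were lower, where 0.193% of tested genes were. In 5 members both p53-/- libraries were above both WT libraries and in 1 below, against 26.4% and 24.4% of tested genes. Nothing is read from these counts, since the same contrast chose the members. Leaving out library 10 kept the direction of every member, but then 0 members and 0 genes were past the threshold, with 767 genes higher and 434 lower at an unadjusted p under 0.05. Without library 10 the lone p53-/- library is assumed to vary like the WT pair.

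Per kb of exon, the order of the members changed with genotype. In WT Ceacam1 was first with 318 ± 21.1 CPM per kb, followed by Ceacam20 with 147 ± 23.7, 1810065E05Rik with 16.4 ± 1.92, Cd177 with 0.976 ± 0.314, Ceacam10 with 0.464 ± 0.104 and Plet1 with 0.180 ± 0.0750 (SD, n = 2). The libraries of neighbours in this order did not overlap. In p53-/- Ceacam1 stayed first with 517 ± 133 CPM per kb. Plet1 came next at 105 ± 21.5 CPM per kb, but its libraries overlapped those of Ceacam20 (96.4 ± 11.9), which in turn overlapped those of 1810065E05Rik (96.1 ± 3.75). Cd177 (45.0 ± 4.14) and Ceacam10 (41.1 ± 5.17) were last and overlapped each other.

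Within the CEACAM family, the mix of transcripts shifted. Ceacam1 took 56.9% and 63.9% of the family's counts per kb in WT and 76.8% and 72.7% in p53-/-. Ceacam20 took 28.0% and 27.5% in WT and 13.2% and 15.1% in p53-/-. Ceacam10 took 0.0919% and 0.0823% in WT and 4.71% and 7.69% in p53-/-. Of the 12 other CEACAM genes 6 had 0 counts in every library and 2 had enough counts for the test. Ceacam18, the most abundant of these, had 164, 65.1, 48.7 and 40.7 CPM in libraries 7 to 10, with a log2 fold change of -1.36 (SE 0.438, adjusted p = 0.208, edgeR quasi-likelihood test). The difference rests on library 7, without which the log2 fold change was -0.53, and without library 8 the adjusted p was 0.0101. Ceacam2, the closest relative of Ceacam1, had 15.7, 27.6, 64.8 and 18.3 CPM, so that the genotypes overlapped (log2 fold change 0.94, SE 0.618, adjusted p = 0.505, edgeR). Ceacam16, next in counts, had 1, 0, 8 and 20. The related pregnancy-specific glycoproteins were almost silent, with 7 of 13 at 0 counts in every library. Psg18, their 1 tested gene, had 16, 14, 10 and 100 counts, high in library 10 alone.

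Near-identical sequence limits these family values unequally. Of the 100-base stretches of Ceacam1 transcripts in the GENCODE M21 annotation, 20.5% also occur in another gene, all of them in Ceacam2, and 32.9% of those of Ceacam2 occur in Ceacam1. The levels of Ceacam1 and Ceacam2 are therefore uncertain with respect to each other. For Ceacam10, Ceacam20 and 1810065E05Rik the share was 0%, for Cd177 1.79% and for Plet1 4.76%. Over stretches of 50 bases it was 30.4% for Ceacam1, 3% for Ceacam10, all with Ceacam1, 1.82% for Ceacam20, 0% for 1810065E05Rik, 5.51% for Cd177 and 9.85% for Plet1. The read length is not given in the sources used here. The near-copy start regions of Ceacam10 and Ceacam1 thus belong to genes whose transcripts share 46 stretches of 50 bases and 0 of 100 bases.

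Cd177 and 1810065E05Rik were set beside the rest of the Ly6/uPAR family. Of 44 other members listed, 18 were tested, 0 were higher and 0 lower past the threshold, and 6 were higher and 1 lower at an unadjusted p under 0.05. DESeq2 called 3 higher and 1 lower. For comparison with this and the later lists, 10% of all genes tested were higher and 7.92% lower at an unadjusted p under 0.05, and DESeq2 called 5.05% higher and 3.5% lower. The Ly6/uPAR median log2 fold change was 0.29, against -0.0084 over all genes tested, and it lay between 0.03 without library 10 and 0.81 without library 8. Lypd8, which keeps flagellated bacteria away from the epithelium, had the most counts and was at 1564 and 1454 CPM in WT and 3178 and 3429 CPM in p53-/- (log2 fold change 1.13, SE 0.286, adjusted p = 0.147, edgeR). Both p53-/- libraries were above WT, and DESeq2 gave an adjusted p of 7.4e-07. Ly6e, an interferon-induced member, had 91.8, 130, 198 and 404 CPM (log2 fold change 1.44, SE 0.391, adjusted p = 0.163, edgeR). Ly6m lay the other way, with 519 and 628 CPM in WT and 351 and 266 CPM in p53-/- (log2 fold change -0.89, SE 0.245, adjusted p = 0.165, edgeR). In Ly6e and Ly6m too the genotypes did not overlap, and DESeq2 gave adjusted p of 0.0034 and 0.0062.

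**Figure D2:**
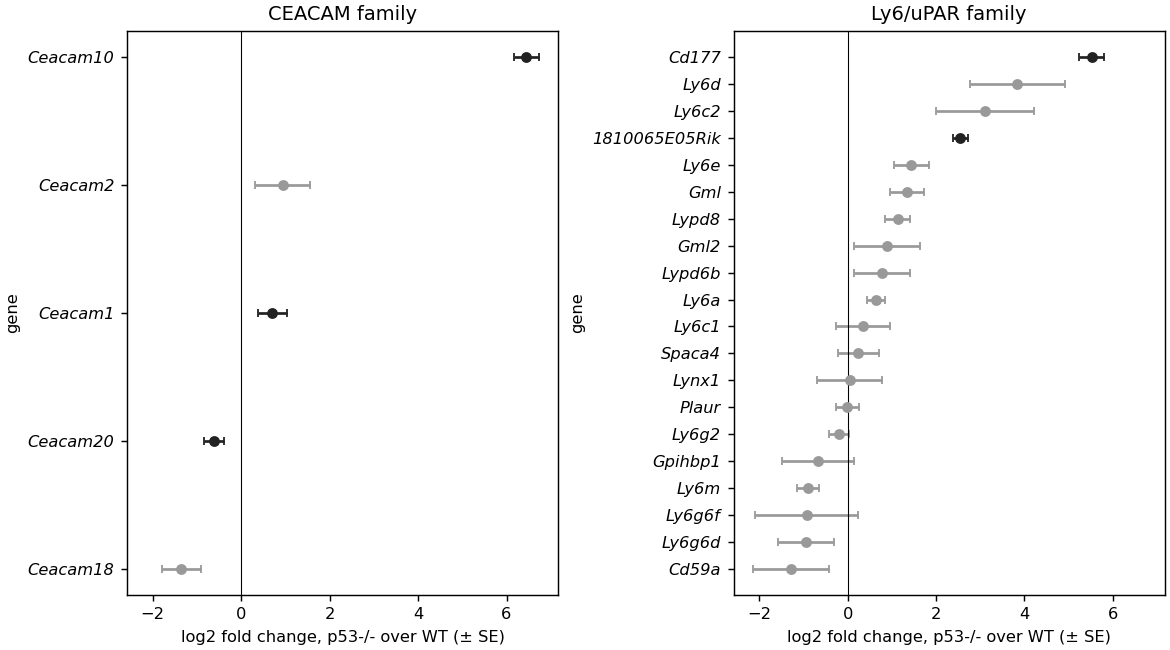
Log2 fold change of p53-/- over WT with its approximate standard error for the tested genes of the CEACAM family (left) and the Ly6/uPAR family (right). Black marks Ceacam10, Ceacam1, Ceacam20, Cd177 and 1810065E05Rik, and grey marks the rest. Ceacam10 stands at 6.45 and Cd177 at 5.52, and Ceacam18 is the lowest CEACAM gene at -1.36.

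Other genes with a GPI anchor, as on PLET1 and CD177, lay on both sides. Of 42 other GPI-anchored genes tested, 0 were higher and 0 lower past the threshold, and 10 were higher and 10 lower at an unadjusted p under 0.05, with a median log2 fold change of -0.31 that turned to 0.51 without library 8. DESeq2 called 7 higher and 8 lower. The most abundant were Itln1, an intelectin that binds microbial sugars, at 1575 and 1058 CPM in WT and 2065 and 1998 CPM in p53-/-, and the dipeptidase Dpep1, at 1085 and 1015 CPM in WT and 615 and 579 CPM in p53-/-. Neither passed (adjusted p = 0.371 and 0.166, edgeR). Car4, a carbonic anhydrase of the epithelial surface named after its value was seen, had 55.2, 83.2, 289 and 312 CPM, a log2 fold change of 2.12 (SE 0.255, adjusted p = 0.0508, edgeR).

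Known partners of CEACAM1, CEACAM20 and CD177 were counted next. Of 17 tested, 0 were higher and 0 lower past the threshold, 4 were higher and 1 lower at an unadjusted p under 0.05, and DESeq2 called 4 and 1. The median log2 fold change was 0.23, but 0.59 without library 8 and 0.12 without library 10. Of the abundant partners, Ctnnb1 (beta-catenin) and Cdh1 (E-cadherin) had log2 fold changes of -0.43 (SE 0.276) and -0.39 (SE 0.271). Ptprh, the phosphatase that acts on CEACAM20, had 246, 263, 251 and 217 CPM (log2 fold change -0.12, SE 0.186), so that its genotypes overlapped where those of Ceacam20 did not. The integrin chains Itgam and Itgb2, with which CD177 associates on neutrophils, were low. Itgam had 1.49, 2.21, 11.4 and 9.20 CPM (adjusted p = 0.0804, edgeR) and Itgb2 had 1.36, 5.97, 19.1 and 38.8 CPM (adjusted p = 0.145, edgeR). The kinase Lyn had 39.6, 46.3, 102 and 113 CPM (adjusted p = 0.0541, edgeR). Ptprh, Itgb2 and Lyn were named after their values were seen.

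Cd177 is a neutrophil gene in blood, so the other neutrophil markers were set beside it. Of 22 markers 6 were tested, 0 were higher past the threshold and 3 were higher at an unadjusted p under 0.05, DESeq2 called 1, and 8 had at most 3 counts in every library. The granule genes Elane and Ngp had 0 counts in all 4 libraries, Ly6g had 1, 0, 1 and 0, Mpo had 0, 0, 1 and 3, and S100a8 had 0, 0, 8 and 0. Elane, Ngp, Ly6g, Mpo and S100a8 were picked out after their values were seen. Other markers of the list had more counts in p53-/-. S100a9 had 0, 2, 19 and 13 counts. The most abundant markers, Itgam (CPM above) and Ltf, are also made by other cells, and Ltf had 48, 53, 125 and 140 counts. The summed list was at 7.12 and 13.3 CPM in WT and 25.5 and 26.6 CPM in p53-/-, moving in the direction of Cd177. Of the 6 tested markers 5 had a positive log2 fold change. In 4 of them both p53-/- libraries were above both WT libraries, against 26.4% of all genes tested. The receptors Csf3r and Cxcr2 had 8, 16, 56 and 41 and 0, 0, 11 and 5 counts. The part of neutrophils in the level of Cd177 was not tested.

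Lymphocyte and follicle markers also lay higher in p53-/-, and unequally between libraries 9 and 10. Several of them had 0 counts in both WT libraries, so no median fold is given. Of 13 B cell genes tested, 0 passed the threshold and 13 were higher at an unadjusted p under 0.05, with DESeq2 calling 9. Cd79a, of the B cell receptor, had 3, 14, 259 and 2563 counts, and Spib, a B cell and M cell factor, had 125, 109, 182 and 1543. Of 16 T cell genes, 0 passed, 16 were higher at an unadjusted p under 0.05 and DESeq2 called 15. Their summed level was 9.22, 19.3, 94.2 and 196 CPM, with Cd8a at 25, 53, 453 and 398 counts and the kinase Lck at 26, 27, 281 and 593. The list of M cell and follicle markers shares Spib, Cr2 and Fcer2a with the B cell list, so the 2 lists are not separate. Markers of M cells and follicles summed to 500, 476, 624 and 1009 CPM. Of 12 tested, 0 were past the threshold, 7 were higher at an unadjusted p under 0.05 and DESeq2 called 6. The most abundant, Pglyrp1 and Marcksl1, had log2 fold changes of 0.55 (SE 0.217) and 0.08 (SE 0.189). From library 9 to library 10 the B cell sum went from 38.7 to 792 CPM, while Plet1 went from 235 to 176, Cd177 from 136 to 119, Ceacam10 from 56.0 to 67.0 and 1810065E05Rik from 86.6 to 91.5 CPM. The part of T cells and follicles in the members' levels was not tested.

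Colon markers, set out because CD177 and PLET1 are also known from colon, gave no common direction. Of 13 tested 0 passed, 3 were higher and 4 lower at an unadjusted p under 0.05, and DESeq2 called 2 and 3. The median log2 fold change was 0.58, but 0.01 without library 7 and 0.10 without library 9. The colon channel Aqp8 had 1, 0, 0 and 3 counts, the hindgut factor Hoxb13 0, 0, 1 and 1, and Car1 0, 4, 13 and 8. The summed list, 3948 and 4074 CPM in WT and 5765 and 5429 CPM in p53-/-, was mostly Lypd8 and the mucin Muc2, both of which the SI expresses as well. Muc2 had 1617, 1821, 1595 and 1120 CPM. Genes of the regenerating epithelium, among which Plet1 is often counted, went mostly the other way. Of 20 tested 0 passed, 1 was higher and 6 lower at an unadjusted p under 0.05, DESeq2 called 0 and 7, and the median log2 fold change was -0.61, or -0.39 without library 8. Its most abundant members Krt8, a keratin, and Anxa2, an annexin, had log2 fold changes of -0.48 (SE 0.402) and -0.71 (SE 0.293).

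Epithelial genes that respond to microbes mostly lay higher in p53-/-. Of 21 tested, 1 was higher and 0 lower past the threshold, 16 were higher and 1 lower at an unadjusted p under 0.05 (10% and 7.92% over all genes), and DESeq2 called 11 and 1. The median log2 fold change was 1.80, against -0.0084 over all genes, and its values ran from 1.63 to 2.27 when a library was omitted. Duoxa2, the maturation factor of the hydrogen peroxide producing oxidase DUOX2, rose from 51.5 and 35.4 CPM in WT to 316 and 254 CPM in p53-/- (log2 fold change 2.71, SE 0.264, adjusted p = 0.0352, edgeR). Its adjusted p was 0.0570 without library 9 and 0.189 without library 10. The antimicrobial lectins Reg3b and Reg3g had the most counts. Reg3b had 4170, 5958, 16706 and 18465 CPM (adjusted p = 0.148, edgeR) and Reg3g 1873, 3357, 11564 and 13062 CPM (adjusted p = 0.113, edgeR), so that the genotypes did not overlap in either. Enterocyte genes as a list lay lower, with 23 tested at a median of -0.58, 0 past the threshold, 0 higher and 7 lower at an unadjusted p under 0.05, and 8 lower by DESeq2. The apolipoprotein Apoa1 had 9438, 7799, 4785 and 4610 CPM.

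**Figure D3:**
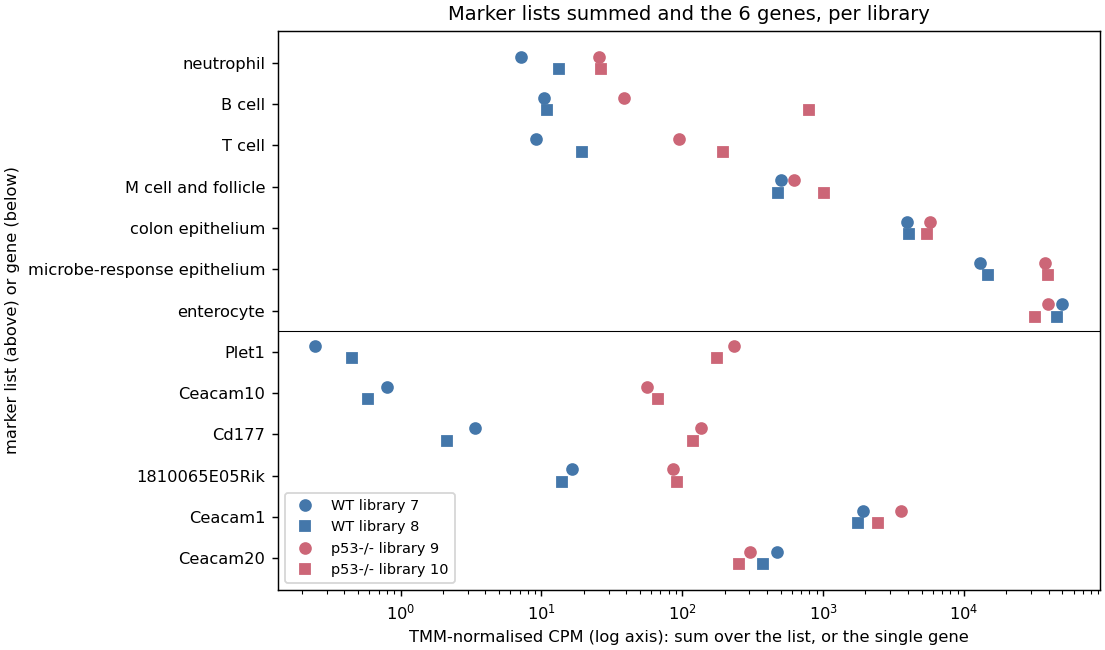
CPM on a log axis in each library, summed over each marker list (above the line) and for each of the 6 genes (below it). Rows are to be read across libraries, since gene length differs between them. Library 10 stands apart in the B cell row, at 792 CPM, but not in the rows of Plet1, Ceacam10 or Cd177.

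The genes beside each member were read from the RefSeq gene order. Of 50 different neighbours, 41 were in the table and 17 were tested, with 0 higher and 0 lower past the threshold, 3 higher and 1 lower at an unadjusted p under 0.05, and a median log2 fold change of 0.18. DESeq2 called 2 higher and 1 lower. The neighbours named here were picked by place. Around the pair Cd177 and Ceacam10, the genes Lypd10, Lypd11, Tex101 and Lypd4 had 0 counts in every library, Gm5893, next to Ceacam10, had 0, 0, 1 and 0, and Gm9844, beyond it, had 40, 35, 87 and 155. On the far side of Ceacam1 lies Ceacam2, whose genotypes overlapped.

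Plet1 stood apart from the protein-coding genes on its side of chromosome 9. Pts, next to it, was at 21.2, 17.2, 23.6 and 26.6 CPM, and Bco2, Il18, Tex12 and Sdhd beyond it had log2 fold changes of -0.15 to 0.14. Plet1os, which overlaps Plet1 on the opposite strand, had 1 and 1 counts in WT and 100 and 49 in p53-/- (adjusted p = 0.0569, edgeR). Like Plet1 it was near absence in WT and higher in library 9 than in library 10. The strand setting of the counting is not given in the sources used here, so reads from the stretch where Plet1 and Plet1os overlap cannot be told apart. Of the 100-base stretches, 4.76% of those of Plet1 and 7.69% of those of Plet1os are found in the other gene. Over 50 bases, 14.2% of those of Plet1os are found in Plet1. Plet1 had 5359 and 3530 counts in the p53-/- libraries where Plet1os had 100 and 49. Whether the counts of Plet1os are reads of Plet1 was not tested.

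The neighbours of the other members varied. Lypd8 lies 2 genes from 1810065E05Rik on chromosome 11, and Gm12251 between them had 6.62, 5.71, 7.80 and 6.22 CPM. Lypd9, on the other side, had 0 counts. Next to Ceacam20 on one side, Nlrp9b had 38.2, 50.2, 55.4 and 44.9 CPM (log2 fold change 0.18, SE 0.207), so that its genotypes overlapped. On the other side the immunoglobulin-like genes Pvr and Igsf23 were lower in both p53-/- libraries, as Ceacam20 was. Pvr, the poliovirus receptor homologue, had 47.8, 43.2, 15.8 and 21.6 CPM (log2 fold change -1.29, SE 0.218, adjusted p = 0.0849, edgeR), and Igsf23 had 303, 125, 106 and 102 CPM (log2 fold change -1.04, SE 0.417, adjusted p = 0.279, edgeR).

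**Figure D4:**
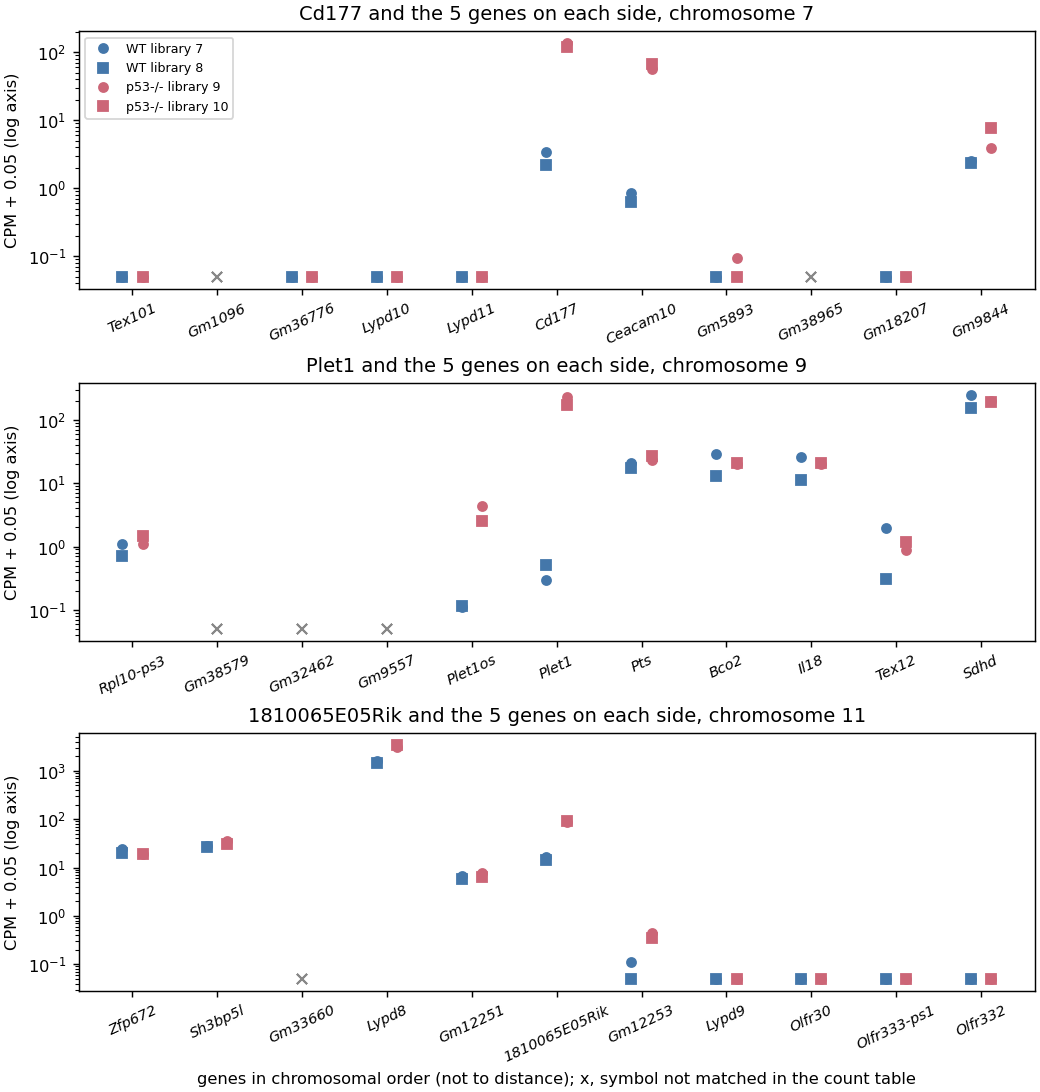
CPM plus 0.05 on a log axis for Cd177 (top), Plet1 (middle) and 1810065E05Rik (bottom) with the 5 genes on each side in chromosomal order, by library. Lypd10 and Lypd11 beside Cd177 are at 0 counts, and Gm5893 beside Ceacam10 has 1 count in library 9. Plet1os, beside Plet1, is at 1 and 1 counts in WT against 100 and 49 in p53-/-. Reads from the stretch where it overlaps Plet1 cannot be told apart.

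The genes whose log2 CPM profile over the 4 libraries lay nearest to each member, by Euclidean distance after centring, were sought among 13180 genes. The profile has 4 points that share the 2 genotypes, so nearness mostly reports a like difference between genotypes. Cd177 and Ceacam10 were among each other's nearest 3 (distance 0.846). Cd177 was also near B3galt5, a glycosyltransferase, at 1.55, 1.49, 83.0 and 41.3 CPM (0.788), and Cd177 and Ceacam10 both to the immunoglobulin segment Ighv1-72 (0.553 and 1.01), with Ighv1-31 the third for Ceacam10 (0.861). The nearest to Plet1 were immunoglobulin segments too and lay further off, with Ighv1-55 at 1.61, Igkv8-21 at 2.11 and Igkv4-70 at 2.12. 1810065E05Rik was nearest to Asah2, a neutral ceramidase of the brush border, which had 14.5, 12.1, 77.7 and 79.6 CPM (0.0361), then to Apol7e (0.193) and Ulbp1 (0.241). Ceacam1 was nearest to Lgr5, the receptor that marks intestinal stem cells, at 9.22, 8.43, 16.2 and 11.9 CPM (0.0699), then to Itga2 (0.101) and Rexo5 (0.121). Ceacam20 was nearest to Cttn, cortactin, at 482, 376, 310 and 260 CPM (0.0298), then to Sowahb (0.0387) and Acadvl (0.0414). With 13180 genes searched, genes from outside the families were to be found near all 6 members, so nothing is read from their presence.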

How the data were processed

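SI RNA of 2 WT and 2 p53-/- irradiated mice was sequenced by Novogene. The deposited values are raw counts per gene that the authors did not normalize. The submitters' processing notes name fastp, HISAT2 2.0.5, featureCounts 1.5.0-p3 and DESeq2 1.20.0. The genome build, annotation and strand setting are not given in the sources used here. Libraries were scaled by TMM, low counts removed by filterByExpr, and genotypes compared with the two-sided quasi-likelihood test of edgeR 4.0.16 in R 4.3.3, with Benjamini-Hochberg adjustment over 16094 genes. The paper states that data points are biological replicates, and replicate libraries differed beyond counting noise (chi-square per degree of freedom 50.0 for WT and 78.3 for p53-/-). With 2 per genotype the spread is poorly known. The scripts were tested on simulated data. The members, gene lists and settings were chosen with earlier results of these data known. Lists were written by hand, with the members left out of them. The Ly6/uPAR, CEACAM, pregnancy-specific glycoprotein, GPI-anchored, partner, neutrophil, B cell, T cell, M cell and follicle, colon, microbe-response, regenerating, enterocyte and p53 target lists are each reported. Named genes are the members, list genes past the threshold or with the highest counts, and the 3 nearest profiles of each member. 1 gene that this rule names is not reported here. Others were named for their role or place after their values were seen. Exon lengths came from GENCODE M21, which holds 91.8% of the deposited gene identifiers. Alternatives were RLE or upper-quartile factors, library size alone, other filters, DESeq2 1.42.0, edgeR's likelihood ratio test, removal of immunoglobulin and T cell receptor segments, CEACAM counts summed, and each library left out. Leaving out the 18S rRNA gene was added after the data were seen.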

Additional observations from a re-analysis of the deposited data

How the results depend on the processing

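The log2 fold change of every member kept its direction under all alternatives, except that Ceacam20 turned to 0.51, also the value for Ceacam10, where the counts of the CEACAM family were summed, a sum that is mostly Ceacam1. With each library left out the log2 fold change ranged from 8.81 to 9.65 for Plet1, 6.24 to 6.71 for Ceacam10, 5.22 to 5.90 for Cd177, 0.40 to 0.99 for Ceacam1, -0.77 to -0.43 for Ceacam20 and 2.43 to 2.68 for 1810065E05Rik. The 4 members past the threshold were past it under every alternative but 2. With at least 10 counts in every library Plet1 and Ceacam10 were not tested and 2 members were past it, and without library 10 0 were, while 4 had an unadjusted p under 0.05. Over all genes, 48 higher and 31 lower became 26 and 20 under plain library sizes, 29 and 20 under upper-quartile scaling, 24 and 18 when each library had to hold at least 10 counts, 1433 and 761 with no filter, 813 and 563 with DESeq2, and 833 and 462 with the likelihood ratio test. They were 325 and 319 without library 7, 680 and 344 without library 8, 77 and 9 without library 9, and 0 and 0 without library 10. With no filter the median log2 fold change of all genes was 0.15, against -0.0084. For genes of the lists, 1 higher and 7 lower became 74 and 44 with no filter, 53 and 43 with DESeq2, 59 and 38 with the likelihood ratio test, 4 lower with at least 10 counts in every library, and 6 higher without immunoglobulin and T cell receptor segments, and ranged from 0 to 38 and 0 to 28 with each library left out. For neighbouring genes, 0 and 0 became 3 and 2 with no filter, 2 and 1 with DESeq2, and 2 and 1 with the likelihood ratio test, and ranged from 0 to 1 and 0 to 2 with each library left out. The cause of these shifts was not tested. No paired analysis was possible because the columns of the count table carry none of the replicate numbers of the labels. Genes at a few counts in WT, such as Plet1 and Plet1os, have folds limited by depth.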
